A study of Mus musculus with 62 samples.

Results

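The Cyp3a genes encode cytochromes P450 of the endoplasmic reticulum that oxidise steroids, bile acids, drugs and many other foreign compounds, and the human counterpart CYP3A4 is a main drug-metabolising enzyme of the liver. Their transcription in hepatocytes is known to be raised by the pregnane X receptor PXR (gene Nr1i2) and the constitutive androstane receptor CAR (gene Nr1i3), each bound to DNA with a retinoid X receptor, and to depend on the hepatocyte factor HNF4A. Several mouse members are also known to differ between the sexes through the pattern of growth hormone secretion, and some polychlorinated biphenyls (PCBs) are known ligands or indirect activators of these receptors. The listed members were followed: Cyp3a11, Cyp3a13, Cyp3a16, Cyp3a25, Cyp3a41a, Cyp3a41b, Cyp3a44 and Cyp3a59. They are defined by family and Entrez identifier, with no threshold on a measured value, and all 8 stood among the 16206 genes of the liver table and the 12968 genes tested there.

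The mice were female C57BL/6, a common inbred laboratory strain, and had taken by mouth either vehicle (0 mg/kg) or a PCB blend called the MARBLES mixture at 0.1, 1 or 6 mg/kg. Liver was sequenced from 4 vehicle animals and from 4, 6 and 6 animals at these doses in that order, and prefrontal cortex and striatum had 21 libraries each, for 62 in all. The labels give no age, dosing schedule or time of tissue collection, and no males were included, so sex-dependent expression could not be compared. Libraries are named here by the number in their title, taken as the number of the animal. Since the labels do not state that each library came from a separate animal, p-values measure the spread between these libraries. The comparisons ask how each member's transcript level in the liver stood at each dose against vehicle, and which members were listed in the brain tables.

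Total counts ranged from 7.38 to 10.2 M (10⁶ counts) in the 20 liver libraries. Levels are given as CPM, read counts relative to each library's scaled total, and a gene was counted as passing when its p from edgeR's quasi-likelihood test, adjusted by the Benjamini-Hochberg method over all 12968 genes, was under 0.05. The liver libraries carried hepatocyte markers at a summed level of 77179 to 171830 CPM, and 5 of 5 of these markers were listed. Summed neuron markers, a check for mixed tissue, lay between 6.44 and 53.97 CPM. The red blood cell markers, of which 3 of 4 were listed, ranged from 47.8 to 3067 CPM in vehicle and from 69.3 to 229.5 CPM at 6 mg/kg, with overlap, and their part in the results was not tested. Of 5 Kupffer cell markers, 1 (Clec4f) rose at 6 mg/kg and 0 fell, where 1.80% of all genes rose and 0.995% fell. Its log2 fold change was 0.93 (edgeR adjusted p 0.0333, and 0.132 without animals 58 and 52). Those of Cd5l (0.43), Vsig4 (0.17), Marco (-0.06) and Adgre1 (-0.05) did not pass. The sum of these markers, 5 of 5 listed, ran from 92.9 to 163 CPM in vehicle and from 124 to 275 CPM at 6 mg/kg. Clec4f alone averaged 64.0 and 122 CPM in these groups. Their part was not tested either. The libraries of animals 58 and 52, both given 6 mg/kg, stood apart. Their summed pericentral hepatocyte markers, 4810 and 4660 CPM, and periportal ones, 2859 and 2439 CPM, were the lowest of the 20 libraries, and their scaling factors, 1.103 and 1.22, were the highest. Values without both are given beside some of the results as an alternative chosen after seeing the data. They are not given for Cyp3a16 and Cyp3a44, the chromosome neighbours or the slopes of sex-biased genes. With 4 libraries left at 6 mg/kg 0.101% of all genes passed. In these bulk samples, fewer cells of a type and less RNA per cell cannot be told apart.

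Cyp3a25, Cyp3a59, Cyp3a11, Cyp3a41a and Cyp3a41b are shown here by 250 bases each, taken upstream of a transcript start in the RefSeq promoter table of GRCm38.p6 (mm10), because these windows show which members are close copies and which differ. The windows lie on chromosome 5 at chr5:146009619-146009868 (minus strand), chr5:146079008-146079257 (plus strand), chr5:145879855-145880104, chr5:145720137-145720386 and chr5:145584731-145584980 (minus strand for the last 3). Where RefSeq gives a gene further starts, a window can reach into the annotated gene: the last 50 bases for Cyp3a59, 26 for Cyp3a25 and 2 for Cyp3a41b lie inside it. Cyp3a25 has 2 entries in the table, 1 base apart, and the first listed was used. Each sequence is read 5′ to 3′ on the gene's strand. Capitals mark the nuclear receptor core element AGGTCA on either strand (TGACCT where it lies on the other strand) and the HNF4-type element CAAAGTCCA.
Cyp3a25: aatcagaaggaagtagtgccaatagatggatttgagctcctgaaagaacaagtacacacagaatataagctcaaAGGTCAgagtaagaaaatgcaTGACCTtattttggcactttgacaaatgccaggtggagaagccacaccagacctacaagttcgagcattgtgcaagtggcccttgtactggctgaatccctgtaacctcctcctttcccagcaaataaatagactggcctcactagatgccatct
Cyp3a59: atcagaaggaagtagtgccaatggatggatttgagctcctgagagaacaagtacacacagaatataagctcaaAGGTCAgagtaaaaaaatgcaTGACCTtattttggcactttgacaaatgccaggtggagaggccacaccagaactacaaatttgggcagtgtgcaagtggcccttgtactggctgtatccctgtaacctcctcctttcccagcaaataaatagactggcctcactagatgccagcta
Cyp3a11: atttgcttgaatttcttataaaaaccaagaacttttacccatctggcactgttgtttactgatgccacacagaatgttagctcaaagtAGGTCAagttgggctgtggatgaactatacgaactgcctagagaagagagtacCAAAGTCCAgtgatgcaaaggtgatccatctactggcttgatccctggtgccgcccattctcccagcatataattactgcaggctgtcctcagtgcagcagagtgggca
Cyp3a41a: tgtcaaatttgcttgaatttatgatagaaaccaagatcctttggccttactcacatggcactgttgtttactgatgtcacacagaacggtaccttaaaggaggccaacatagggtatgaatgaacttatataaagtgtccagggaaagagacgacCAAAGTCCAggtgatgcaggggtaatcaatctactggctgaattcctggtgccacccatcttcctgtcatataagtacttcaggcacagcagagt
Cyp3a41b: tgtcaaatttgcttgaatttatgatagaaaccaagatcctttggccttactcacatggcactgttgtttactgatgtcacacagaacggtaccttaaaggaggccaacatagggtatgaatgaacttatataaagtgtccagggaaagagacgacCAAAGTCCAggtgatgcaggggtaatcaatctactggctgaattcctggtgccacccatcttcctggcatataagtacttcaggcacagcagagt
The windows of Cyp3a41a and Cyp3a41b matched at 249 of 250 bases, and the single difference was T222G, counted from 1 at the upstream end with the Cyp3a41a base first. Those of Cyp3a25 and Cyp3a59 were 94.8% identical over an alignment of 251 positions, whereas Cyp3a11 and Cyp3a59 were 48.7% identical.

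Of the 8 members, 4 (Cyp3a11, Cyp3a25, Cyp3a44 and Cyp3a59) held AGGTCA on either strand of this window, against 13.8% of 27025 RefSeq windows of the same length. In both Cyp3a25 and Cyp3a59 a pair of these elements faced each other across 15 bases, an arrangement looked for after the windows had been seen. Spelled AGGTCANNNNNNNNNNNNNNNTGACCT, it occurred in 3 of the 27025 windows, and the third was Cyp3a57. The element CAAAGTCCA stood in Cyp3a11, Cyp3a16, Cyp3a41a and Cyp3a41b, against 0.381% of all windows, and it overlapped no AGGTCA. The Cyp3a44 window was 94.8% identical to that of Cyp3a41b but did not hold CAAAGTCCA. Other pairs of AGGTCA or AGTTCA were found in 0 members in the spellings tried. These pointed apart across 6 bases or the same way across 3 or 4. Each of these spellings occurred in at most 3 of the 27025 windows. TTATGTAA and TTACGTAA, also looked for, stood in 0 members, against 0.862% and 0.0999% of all windows. These matches and misses describe letters, and binding was not measured.

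The mouse reference lists 13 Cyp3a genes, of which 9 are protein coding and 4 are pseudogenes, and 0 of the pseudogenes stood in the liver table. All lie on chromosome 5 of GRCm38.p6. Cyp3a13 (Entrez 13113, chr5:137892933-137925610, minus strand) lies outside the cluster of the other 7 members, as does the pseudogene Cyp3a61-ps1 (chr5:138383790-138391594). Cyp3a16 (Entrez 13114, chr5:145436309-145469740), Cyp3a41b (Entrez 100041375, chr5:145558664-145584732), Cyp3a41a (Entrez 53973, chr5:145694049-145720136), Cyp3a44 (Entrez 337924, chr5:145773983-145805891), Cyp3a11 (Entrez 13112, chr5:145854607-145879854) and Cyp3a25 (Entrez 56388, chr5:145977192-146009644) follow each other on the minus strand. Cyp3a59 (Entrez 100041449, chr5:146079208-146114978) is next to Cyp3a25 and lies on the plus strand. From Cyp3a57 to Cyp3a59 the cluster spans 769.83 kb and holds 0 protein-coding genes of other families.

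How far the counts can separate these copies depends on how reads that match several genes were treated, which is not given in the sources used here. Of the 50-base windows of the Cyp3a41a reference transcript, 93.7% occur unchanged in Cyp3a41b, and of its 100-base windows 88.4% do. The separate values of Cyp3a41a and Cyp3a41b are therefore uncertain. Of the Cyp3a59 windows, 24.7% of those with 50 bases and 5.61% of those with 100 bases occur in Cyp3a25, so these members are separable over most of their length but not all of it. Cyp3a13 shared 0% of its 50-base windows with the other family members. Cyp3a11 shared 6.32% with Cyp3a41a, Cyp3a16 shared 6.13% with Cyp3a11, and Cyp3a44 shared 11.5% with Cyp3a41a.

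Per length of transcript, Cyp3a41b, Cyp3a41a and Cyp3a11 were the most abundant members in vehicle liver. On the scale of CPM per kb (kilobase of reference transcript), the level of Cyp3a41b was 645 ± 203, that of Cyp3a41a 590 ± 182 and that of Cyp3a11 513 ± 26.8 (SD, n = 4). The ranges of these neighbours overlapped, so their order is not set by the 4 libraries. Cyp3a25 followed at 187 ± 44.1 CPM per kb, below every Cyp3a11 value and above every value of the next member. Cyp3a16 stood at 64.4 ± 34.9, Cyp3a44 at 33.3 ± 15.1 and Cyp3a13 at 30.7 ± 3.19 CPM per kb, with overlapping neighbours. Cyp3a59 had the lowest mean of the 8 at 13.5 ± 5.17 CPM per kb, with its highest vehicle library at 19.9 against the lowest Cyp3a13 library at 27.6. Its range overlapped those of Cyp3a44 and Cyp3a16, whose lowest vehicle libraries stood at 13.7 and 16.2 CPM per kb. Cyp3a57, a further coding gene of the cluster, had 25 counts over the 20 libraries, with at most 6 in 1 library, and was not tested.

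At 6 mg/kg, Cyp3a59 was higher than in vehicle, and it was 1 of 8 members to pass. It rose 2.29-fold: 4 vehicle libraries averaged 26.8 ± 10.3 CPM and 6 exposed ones 61.2 ± 15.3 CPM (mean ± SD), with every 6 mg/kg library above every vehicle library. Its close copy Cyp3a25 had a mean 1.52 times that of vehicle and did not pass. For Cyp3a11, Cyp3a13, Cyp3a16, Cyp3a41a, Cyp3a41b and Cyp3a44 the 95% intervals of the log2 fold change included 0. Over all genes, 2.80% passed in this comparison, 1.80% higher and 0.995% lower. The median log2 fold change was 0.04 over the 8 members and 0.02 over all genes tested.

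**Figure D1:**
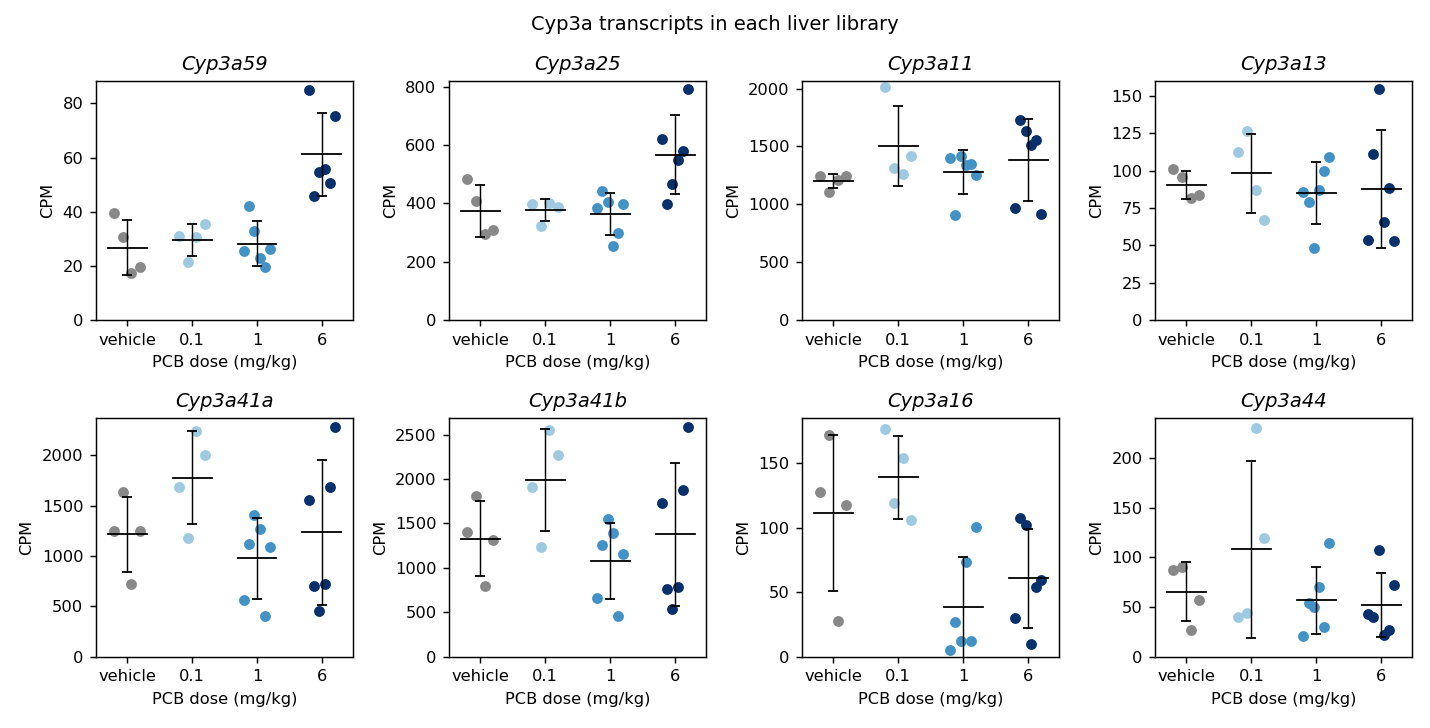
Level of each Cyp3a member in each liver library, in CPM on a linear axis starting at 0, by PCB dose in mg/kg. Points are libraries (4, 4, 6 and 6), horizontal lines are group means and bars are 1 SD. The 6 mg/kg points of Cyp3a59 lie at 45.9 CPM and above, and its vehicle points at 39.5 CPM and below.

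Cyp3a59 is annotated as a P450 monooxygenase of the same subfamily, and its own substrates are less studied than those of Cyp3a11. Its vehicle levels were 39.5, 30.6, 17.5 and 19.5 CPM in animals 8, 7, 4 and 3. Those at 0.1 mg/kg were 30.9, 21.5, 30.8 and 35.3 CPM in animals 29, 28, 25 and 23, all inside the vehicle range. At 1 mg/kg the 6 libraries ran from 19.4 over a median of 25.9 to 42.3 CPM, again overlapping vehicle. The 6 mg/kg libraries ran from 45.9 over a median of 55.2 to 84.8 CPM, above every library of the other 3 groups. Animals 58 and 52, whose libraries stood apart in marker sums and scaling, were the highest, at 84.8 and 75.5 CPM, and the other 4 still lay above all vehicle libraries.

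By edgeR's quasi-likelihood test, the log2 fold change (log2FC) of Cyp3a59 at 6 mg/kg was 1.20 (SE 0.251, 95% interval 0.67 to 1.72, adjusted p 0.0197). For 1 mg/kg it was 0.08 (SE 0.244, adjusted p 0.933) and for 0.1 mg/kg 0.15 (SE 0.267, adjusted p 0.994). Groups without overlap in the higher direction at 6 mg/kg were found for 3.26% of all genes tested. Against the other doses in place of vehicle, the Cyp3a59 difference at 6 mg/kg was 1.12 on the log2 scale over 1 mg/kg (SE 0.219, edgeR adjusted p 0.121) and 1.05 over 0.1 mg/kg (SE 0.249, adjusted p 0.121), and neither passed. Of all genes, 0.0386% passed against 0.1 mg/kg and 0% against 1 mg/kg.

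The Cyp3a59 call at 6 mg/kg rested on single animals. The log2 fold change was 1.04 to 1.45 when each library was left out in turn, but the edgeR adjusted p rose to 0.0526 without animal 58, 0.0965 without animal 4 and 0.0979 without animal 3. Without animals 58 and 52 together the log2 fold change was 0.95 (SE 0.25, edgeR adjusted p 0.125). The adjusted p was also 0.0606 with the vehicle and 6 mg/kg libraries alone in the fit. A clock index, the log2 CPM of the circadian gene Dbp minus that of Arntl, moved with the groups: it was 2.05 to 5.45 in vehicle animals and 6.17 to 7.98, 5.76 to 8.60 and 6.58 to 8.48 in those given 0.1, 1 and 6 mg/kg. With that index as a covariate the log2 fold change of Cyp3a59 was 0.57 (SE 0.359, adjusted p 0.9995). The vehicle libraries fell into 2 pairs: the index was 5.45 and 5.19 in animals 8 and 7 and 2.49 and 2.05 in animals 4 and 3. Red blood cell markers (3067 and 1174 against 59.9 and 47.8 CPM) and Cyp3a59 itself were also higher in the first pair, and the part of this split in the result was not tested. The index in vehicle overlapped that of no dosed group, so the index and the exposure cannot be told apart here.

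Cyp3a25, a liver steroid hydroxylase, stood at 483.1, 406.8, 296.7 and 307.5 CPM in vehicle animals 8, 7, 4 and 3. Its 0.1 mg/kg libraries lay between 323.4 and 402.1 CPM and its 1 mg/kg libraries between 252.6 and 443.4 CPM. Those at 6 mg/kg ran from 398.5 over a median of 564.1 to 792.8 CPM, and 4 of 6 exceeded the highest vehicle library. The groups therefore overlapped, through animals 56 and 55.

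The log2 fold change of Cyp3a25 at 6 mg/kg was 0.60 (SE 0.205, 95% interval 0.18 to 1.03), which missed the threshold with an edgeR adjusted p of 0.0915. DESeq2 gave 0.61 with an adjusted p of 0.0334, and without animal 56 edgeR's adjusted p was 0.0376. With a GC and length offset, added after seeing the data, it was 0.83 with an adjusted p of 0.0369. It did not pass with 1 surrogate variable (0.42, adjusted p 0.218), with the vehicle and 6 mg/kg libraries alone (0.62, adjusted p 0.146), without the filter on low counts (0.59, adjusted p 0.121), without animals 58 and 52 together (0.42, adjusted p 0.399) or with the clock index as a covariate (0.20, adjusted p 0.9995). Of 10 fits that each left out 1 library, the one without animal 56 passed, and the adjusted p reached 0.254 without animal 4. The values at 1 mg/kg (-0.04, SE 0.201) and 0.1 mg/kg (0.02, SE 0.221) lay near 0.

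The counts of Cyp3a59 were 5.90 to 8.19% of those of Cyp3a25 in vehicle, and 6.65 to 9.10% and 6.54 to 9.53% in the 0.1 and 1 mg/kg groups. In the 6 mg/kg group they were 8.78 to 13.7%, so every 6 mg/kg library exceeded every vehicle library in this ratio. The ratio overlapped between 6 mg/kg and either of the lower doses. Within dose groups the pair moved together: the deviations of log2 CPM from the group means had a Pearson r of 0.83 and a Spearman rho of 0.86 over 20 libraries (permutation within groups, p adjusted over 28 pairs of members 0.00252 and 0.00056). Without the 2 libraries whose Cyp3a25 deviation lay farthest from its median, r was 0.85. These members share part of their sequence, as given above, and the part of that in the correlation was not tested.

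**Figure D2:**
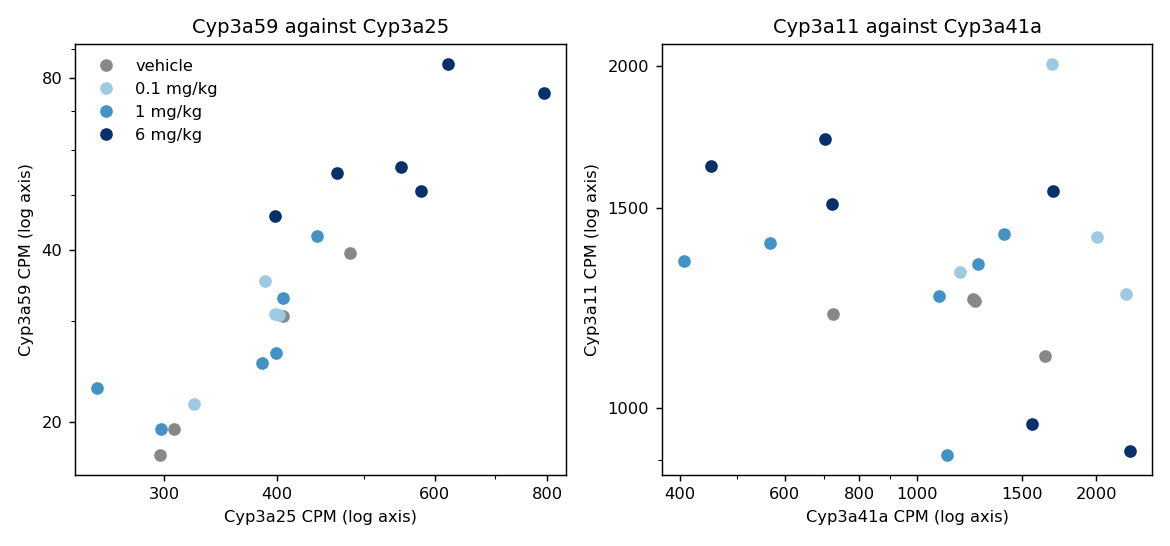
Cyp3a59 against Cyp3a25 (left) and Cyp3a11 against Cyp3a41a (right), in CPM on log axes, with 1 point per liver library coloured by dose. On the left the points run along a rising line and the 6 mg/kg libraries reach 84.8 CPM of Cyp3a59, and on the right animals 58 and 52 at 6 mg/kg combine a low Cyp3a11 with a high Cyp3a41a level.

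Cyp3a11, the main PXR-responsive member of mouse liver, had close values in vehicle and wider ones at each dose. Its vehicle values were 1246, 1111, 1209 and 1241 CPM in animals 8, 7, 4 and 3. Given 6 mg/kg, animals 56, 55, 54 and 53 stood at 1725, 1634, 1511 and 1553 CPM, above all vehicle libraries, while animals 58 and 52 stood at 966.5 and 915.6 CPM, below all of them. The coefficient of variation was 5.22% in vehicle and 23.05%, 14.9% and 25.4% at 0.1, 1 and 6 mg/kg, with no test of these differences, and without animals 58 and 52 it was 5.89% at 6 mg/kg. The log2 fold change was 0.20 (SE 0.2, 95% interval -0.21 to 0.62, edgeR adjusted p 0.552), and without animals 58 and 52 it was 0.42 (SE 0.172, adjusted p 0.33).

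At 0.1 mg/kg the Cyp3a11 levels were 2011, 1316, 1261 and 1415 CPM in animals 29, 28, 25 and 23, all above the vehicle range. Such a gap in the higher direction was found for 2.14% of all genes at that dose. The log2 fold change was 0.32 (SE 0.219, edgeR adjusted p 0.994). At 1 mg/kg the libraries ran from 908 over a median of 1343 to 1422 CPM (log2FC 0.09, SE 0.2, edgeR adjusted p 0.911).

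Cyp3a41a and Cyp3a41b, near-identical genes known for female-biased expression in mouse liver, had wide and overlapping groups. Cyp3a41a stood at 1244, 1640, 724.1 and 1253 CPM in vehicle animals 8, 7, 4 and 3. At 6 mg/kg it stood at 1560, 702.7, 450.9, 720.1, 1691 and 2280 CPM in animals 58, 56, 55, 54, 53 and 52, so 2 libraries lay above and 3 below the whole vehicle range. Cyp3a41b ran from 793.6 to 1815 CPM in vehicle and from 540.3 to 2584 CPM at 6 mg/kg. Its counts were 1.04 to 1.20 times those of Cyp3a41a in every liver library.

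The log2 fold changes at 6 mg/kg were 0.02 for Cyp3a41a (SE 0.397) and 0.05 for Cyp3a41b (SE 0.395), and 0.04 for their summed counts (SE 0.396, edgeR adjusted p 0.964). Without animals 58 and 52 they were -0.45 for Cyp3a41a (SE 0.398) and -0.43 for Cyp3a41b (SE 0.393). At 0.1 mg/kg, where 3 of 4 libraries exceeded the vehicle range, they were 0.55 (SE 0.436) and 0.58 (SE 0.434) and neither passed. The within-group deviations of the pair had an r of 0.9975 and a rho of 0.98 (adjusted permutation p 0.00028 for both, from the smallest p that 100000 draws can give). The pair shares most of its sequence, and the part of that was not tested. For Cyp3a11 against Cyp3a41a, r was -0.50 and rho -0.42 (adjusted permutation p 0.134 and 0.176). Without the 2 libraries whose Cyp3a11 deviation lay farthest from its median, r was -0.36.

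Cyp3a16 and Cyp3a44, known for higher expression in female or young liver, varied widely between animals in most dose groups. Cyp3a16 stood at 128.2, 171.7, 28.02 and 117.9 CPM in vehicle animals 8, 7, 4 and 3. At 1 mg/kg it ran from 5.54 over a median of 19.7 to 100.8 CPM, and 4 of 6 libraries lay below the lowest vehicle library. The 6 mg/kg libraries spanned 9.90 to 107.7 CPM around a median of 57.0. Within the groups from vehicle to 6 mg/kg, in order of dose, the highest Cyp3a16 level was 6.13, 1.67, 18.2 and 10.9 times the lowest, so the 0.1 mg/kg libraries lay close together. The log2 fold change of Cyp3a16 was -1.53 at 1 mg/kg (SE 0.683, unadjusted p 0.0375, edgeR adjusted p 0.573) and -0.87 at 6 mg/kg (SE 0.681, adjusted p 0.441).

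Cyp3a44 stood at 86.95, 90.4, 27.0 and 57.2 CPM in vehicle animals 8, 7, 4 and 3. At 6 mg/kg it ran from 22.1 over a median of 41.5 to 107.1 CPM and overlapped vehicle (log2FC -0.33, SE 0.538, edgeR adjusted p 0.739). At 0.1 mg/kg animal 25 reached 229.9 CPM, while the other 3 lay between 39.9 and 119.8 CPM. The within-group deviations of Cyp3a16 and Cyp3a44 had an r of 0.68 (adjusted permutation p 0.00597) and a rho of 0.59 (adjusted permutation p 0.0511). Without the 2 libraries whose Cyp3a16 deviation lay farthest from its median, r was 0.57. Of the 28 pairs, 4 passed by r and 2 by rho. The fourth by r was Cyp3a41b with Cyp3a59, at 0.62 (adjusted permutation p 0.0399), and its rho of 0.61 did not pass (adjusted permutation p 0.0511). For the near-identical Cyp3a41a with Cyp3a59, r was 0.59 and did not pass either (adjusted permutation p 0.0557).

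Cyp3a13, the member outside the cluster and known from intestine as well as liver, stood at 101.4, 95.9, 81.7 and 83.96 CPM in vehicle animals 8, 7, 4 and 3. After 6 mg/kg it ran from 52.7 over a median of 77.0 to 154.8 CPM, with 2 libraries above and 3 below the vehicle range. The log2 fold change was -0.05 (SE 0.269, 95% interval -0.60 to 0.51, edgeR adjusted p 0.931).

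**Figure D3:**
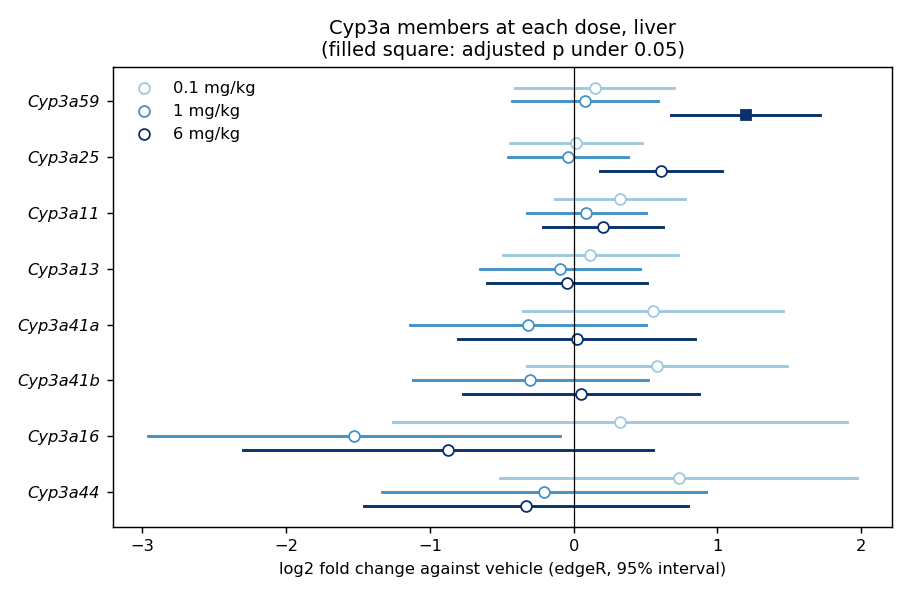
Log2 fold change of each Cyp3a member against vehicle at 0.1, 1 and 6 mg/kg (edgeR, points) with 95% intervals (lines). A filled square marks an adjusted p under 0.05, and the value of 1.20 for Cyp3a59 at 6 mg/kg is the single one.

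At the lower doses, 1 and 0.1 mg/kg, 0 of 8 members passed by edgeR and 0 by DESeq2. By edgeR's unadjusted p under 0.05, 1 member was counted at 1 mg/kg and 0 at 0.1 mg/kg. Of all genes, the shares that passed were 0% for 1 mg/kg and 0.0154% for 0.1 mg/kg, and those by unadjusted p were 8.44% and 4.10%. At 0.1 mg/kg all 8 log2 fold changes lay above 0, with a median of 0.32 against -0.00135 over all genes tested, of which 49.8% lay above 0. Leaving out a single library turned the sign of Cyp3a13, Cyp3a16, Cyp3a25 or Cyp3a59 there, and the near-identical Cyp3a41a and Cyp3a41b, whose separate counts are uncertain, are both counted. At 1 mg/kg 2 of the 8 lay above 0. The comparisons share the 4 vehicle libraries.

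As a slope over dose rank (vehicle, 0.1, 1, 6 mg/kg), Cyp3a59 rose by 0.38 on the log2 scale per step (SE 0.0881, edgeR adjusted p 0.0225) and was again 1 of 8 members to pass, against 4.81% of all genes. Its group means of 26.8, 29.6, 28.2 and 61.2 CPM differed most between 1 and 6 mg/kg. Cyp3a25 had a slope of 0.19 (SE 0.0675, adjusted p 0.0869), which did not pass. It passed with DESeq2 (0.20, adjusted p 0.0478), with the GC and length offset (0.27, edgeR adjusted p 0.0419) and over mg/kg in place of the rank (0.11 per mg/kg, adjusted p 0.0273), but not without animals 58 and 52 (0.11, adjusted p 0.413). The Cyp3a59 slope lost its call without animal 58, 52, 4 or 3, with adjusted p values of at most 0.0656, and without animals 58 and 52 together it was 0.28 (adjusted p 0.152).

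The summed Cyp3a pool took 0.327 to 0.538% of all counts in vehicle, and 0.448 to 0.683% and 0.248 to 0.457% at 0.1 and 1 mg/kg. At 6 mg/kg it took 0.371 to 0.832%, overlapping vehicle, and the highest value was that of animal 52. On the scale of CPM per kb, Cyp3a41a and Cyp3a41b made up 27.96 ± 3.16% and 30.5 ± 3.40% of the pool in vehicle, Cyp3a11 25.8 ± 6.91%, Cyp3a25 9.10 ± 1.63% and Cyp3a59 0.642 ± 0.177% (SD, n = 4). After 6 mg/kg the Cyp3a11 share ran from 11.9% in animal 52 to 43.4% in animal 55. It was 18.6 to 35.2% in vehicle, 16.2 to 28.8% at 0.1 mg/kg and 20.9 to 47.5% at 1 mg/kg. The Cyp3a59 share was 1.41 ± 0.342% (SD, n = 6) and that of Cyp3a25 12.8 ± 2.12%. The lowest Cyp3a59 share at 6 mg/kg, 0.918%, lay above the highest in vehicle, 0.892%, but below the highest at 1 mg/kg, 1.15%.

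**Figure D4:**
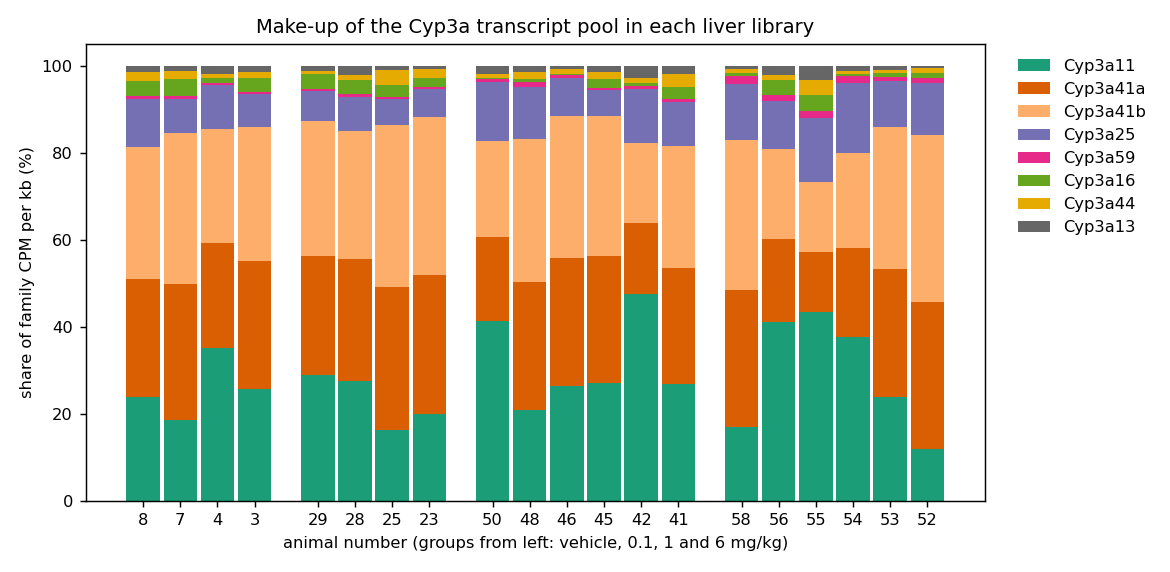
Share of each member in the Cyp3a pool of each liver library, in percent of the summed CPM per kb of the 8 members, with 1 bar per animal and the groups in order of dose. At 6 mg/kg the Cyp3a11 share is 17.1% in animal 58 and 11.9% in animal 52, and animal 55 has the largest of this group, at 43.4%. Animal 25 at 0.1 mg/kg has 16.2% and animal 42 at 1 mg/kg 47.5%.

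In the brain tables, Cyp3a13 was listed in both regions and the other 7 members in neither. Prefrontal cortex gave it 33 counts over 21 libraries, 0 to 7 per library with 8 libraries at 0, and striatum gave 59 counts over 21 libraries, 0 to 7 per library with 3 at 0. It did not pass the filter on low counts in either region, so 0 members were tested there. Without that filter its log2 fold change at 6 mg/kg was 0.09 in prefrontal cortex (SE 0.857, edgeR adjusted p 0.986) and 0.28 in striatum (SE 0.771, adjusted p 0.894). The 95% intervals, -1.67 to 1.84 and -1.30 to 1.87 on the log2 scale, were wide at these counts. What size of change could have been detected was not tested.

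Among the receptors and partners that act on Cyp3a transcription, the PXR gene Nr1i2 rose at 6 mg/kg. Its 4 vehicle libraries averaged 65.2 ± 7.84 CPM and the 6 exposed ones 106 ± 28.03 CPM (mean ± SD), with overlapping groups (log2FC 0.71, SE 0.187, edgeR adjusted p 0.0441). Without animals 58 and 52 it did not pass (0.48, SE 0.173, adjusted p 0.272). The CAR gene Nr1i3 had 237 ± 24.4 and 482 ± 220 CPM and did not pass (log2 fold change 1.03, SE 0.311, adjusted p 0.0698). Of a list of 19 receptors, regulators and electron donors, 1 (Nr1i2) rose and 0 fell, where 1.80% of all genes rose and 0.995% fell. The list's median was 0.11, against 0.02 over all genes. Values for Rxra, the shared dimer partner, were -0.07 (adjusted p 0.885), for Hnf4a -0.19 (adjusted p 0.54) and for Por, the reductase that feeds electrons to P450 enzymes, 0.63 (adjusted p 0.199).

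**Figure D5:**
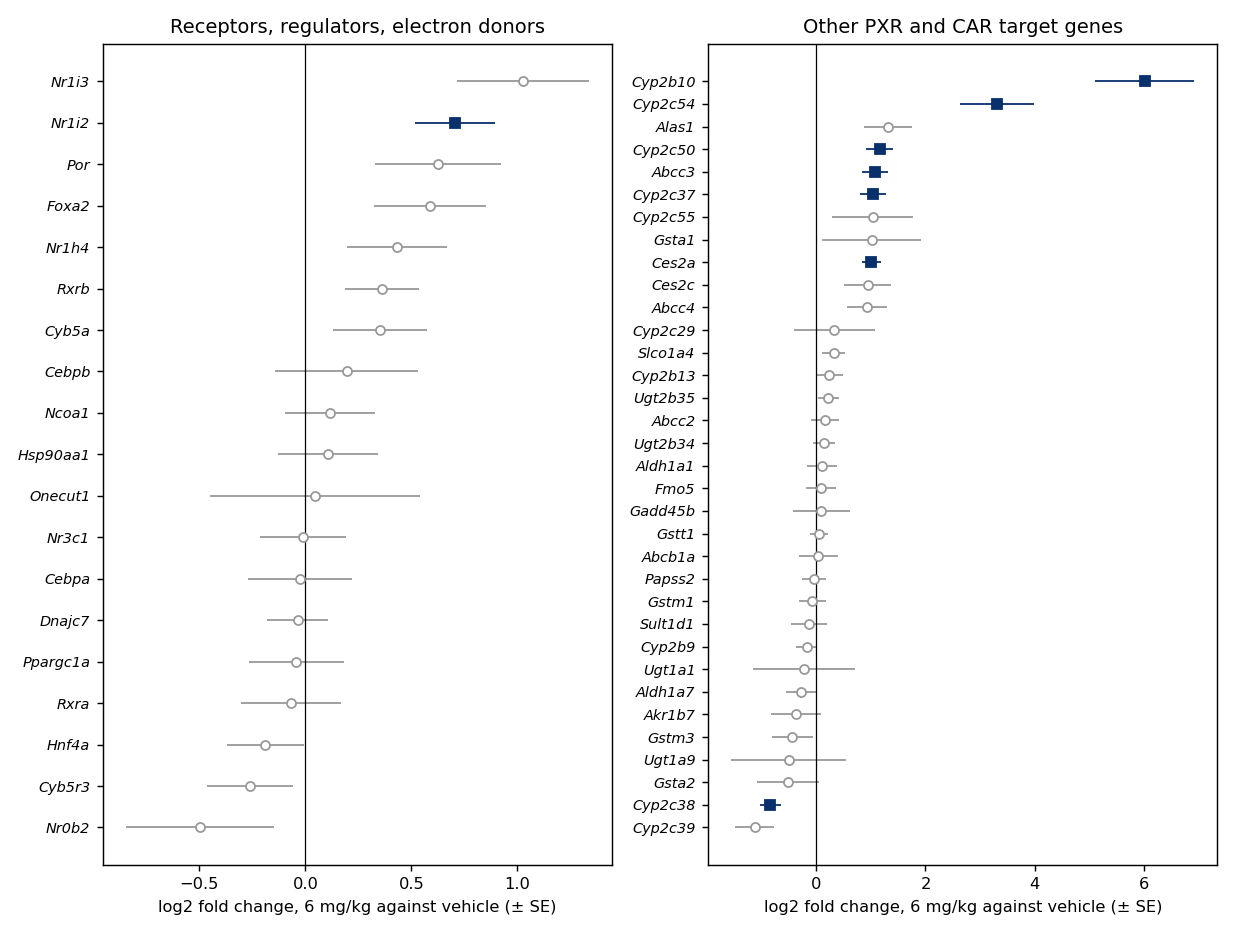
Log2 fold change at 6 mg/kg against vehicle with its standard error for 19 receptors, regulators and electron donors (left) and 34 other genes known to respond to PXR or CAR (right). Filled squares pass an edgeR adjusted p of 0.05: 1 on the left and 7 on the right, led by Cyp2b10 at 6.01.

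Of 34 other genes known to respond to PXR or CAR, 6 rose and 1 fell at 6 mg/kg, with a median of 0.12, and of all genes 1.80% rose and 0.995% fell. The list was drawn up with earlier results of these data known. By smallest p, the first 4 of those that rose were the P450 genes Cyp2b10 (log2 fold change 6.01), Cyp2c50 (1.16) and Cyp2c54 (3.31) and the carboxylesterase gene Ces2a (1.01), and Cyp2c38 fell by 0.84 on the log2 scale. Of 15 circadian genes, 4 rose (Tef, 1.42; Per3, 2.09; Dbp, 1.68; Ciart, 2.88) and 1 fell (Arntl, by 1.98), with a median of 0.39, beside 1.80% of all genes higher and 0.995% lower. Without animals 58 and 52, 3 of the 34 (Cyp2b10, Cyp2c50 and Ces2a) and 0 of the 15 passed. At 0.1 and 1 mg/kg, 0 genes of these lists passed by edgeR.

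Genes known for sex bias in mouse liver were compared because Cyp3a41a, Cyp3a41b, Cyp3a16 and Cyp3a44 belong to such groups. Of 17 female-biased genes, 0 rose and 1 fell (Slc22a27, an organic anion transporter of the SLC22 family, by 0.71 on the log2 scale, edgeR adjusted p 0.0159), with a median of -0.12. Of all genes 0.995% fell, and without animals 58 and 52 Slc22a27 did not pass (adjusted p 0.0799). By the slope over dose rank, 1 of the 17 rose (A1bg, 0.70 per step) and 3 fell (Slc22a27, by 0.26; Sult2a2, by 0.44; Cyp2c40, by 0.27), beside 4.81% of all genes in either direction. These were named after their values were seen. Of 10 male-biased genes tested, 0 passed and the median was 0.31, the smallest p values being those of Elovl3 (1.48, adjusted p 0.0846) and C6 (0.54, adjusted p 0.182). By the slope, 1 of these 10 rose (Elovl3, 0.53 per step, adjusted p 0.0382). Of 10 growth hormone signalling genes, 0 passed and the median was 0.05, with Cish at 1.36 (adjusted p 0.1) and Ghr at -0.41 (adjusted p 0.18).

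The neighbours of the family on the chromosome were followed too. Between Cyp3a13 and Cyp3a59 lie 121 protein-coding genes of other families, of which 88 were tested, 3 rose (Ap5z1, Ints1 and Sun1, named after their values were seen) and 0 fell, beside 1.80% of all genes higher and 0.995% lower. The nearest tested gene beyond Cyp3a59, Rnf6, had a log2FC of -0.19 (SE 0.216, edgeR adjusted p 0.611). Zscan25, on the other side of the cluster, had -0.16 (SE 0.42, adjusted p 0.846), and Pilrb2, beyond Cyp3a13, had 0.40 (SE 0.435, adjusted p 0.6).

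The genes outside the family whose log2 CPM followed each member most closely over the 20 liver libraries are given as a description. They included Hjurp for Cyp3a59 (r 0.91) and E4f1 for Cyp3a25 (0.90). Cyp3a41a was followed by Tnfrsf25 (0.86) and Ppil4 (0.85), and Cyp3a41b by Tnfrsf25 (0.87) and Zfp983 (0.86). For Cyp3a13 they were Epas1 (0.91) and Txndc15 (0.90). The closest genes lay further off for Cyp3a11 (Hacd1, 0.75; H2bc8, 0.73), Cyp3a16 (Nt5e, 0.81; Frmd6, 0.78) and Cyp3a44 (Tnks2, 0.73). These points share libraries, depth and dose groups.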

How the data were processed

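The authors deposited whole-number read counts per gene, 1 table per tissue, with Entrez identifiers and a column per library. Per the submitters' processing notes, HISAT2 and FastQC were used with mm10. The counting tool, the annotation, the use of strand and the treatment of reads that match several genes are not given in the sources used here. Per the labels' protocols, mRNA was enriched by poly(A) selection or by depleting ribosomal RNA, with no word on which, and the extraction text speaks of brain punches. Symbols, positions and sequences came from RefSeq GRCm38.p6, which named 99.95% of the liver identifiers.

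Counts were fitted with edgeR 4.0.16 (R 4.3.3): filterByExpr with a minimum of 10 counts, TMM scaling, and 1 robust quasi-likelihood fit over all dose groups of a tissue. P-values were adjusted over all genes tested. Simulated counts with 200 changed genes among 12786 liver genes gave back 43% of the 2-fold and 83% of the 4-fold changes at 6 mg/kg. Libraries of a group differed by more than sampling noise (smallest chi-square per degree of freedom 12.9 in the liver). Depth was 7.38 to 10.2 M counts in the liver, 8.72 to 12.1 M in prefrontal cortex and 8.28 to 12.02 M in striatum, and each listed gene had at least 10 counts in total. Shared windows and identities were computed on the longest GENCODE transcript per gene, and correlations used 100000 permutations within dose groups.

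Alternatives were DESeq2 1.42.0, other size factors and filters, 2 groups alone, 1 surrogate variable (sva 3.50.0), the clock index, other references, a slope over mg/kg, summed Cyp3a41 counts and leaving out each library. The GC and length offset, the leave-one-out fits of the slope and the fits without animals 58 and 52, the libraries with the highest scaling factors, were added after the data were seen. Genes were named by rule: all members, 5 fixed regulators, up to 4 passing genes per list and direction (or the 2 with the smallest p where none passed), the 2 most similar genes per member and the cluster's neighbours. The family and its members, which no threshold on a measured value sets, and the lists were chosen with earlier results of these data known. A few genes that these rules or lists would name are not reported here.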

Additional observations from a re-analysis of the deposited data

Results flagged for a closer look

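For the 8 members and the regulators Nr1i2, Nr1i3, Rxra, Hnf4a and Por, the highest and lowest CPM of each liver dose group were compared with their neighbours. Over these 52 sets of libraries, 1 value stood far from the rest of its group, where chance alone flags about 2.6 of 52. It was Cyp3a11 in animal 48 at 1 mg/kg, with 908 CPM, the lowest of 6 libraries, against 1255 CPM in the nearest.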

How the results depend on the processing

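No paired analysis was possible because the dose groups hold different animals, which share no number. Cyp3a59 at 6 mg/kg stayed higher than in vehicle in every alternative run against vehicle, with log2 values of 0.57 to 1.45, but did not pass with 2 groups alone, with the clock index, without animal 58, 4 or 3, or without animals 58 and 52 together. Against 0.1 and 1 mg/kg in place of vehicle it was 1.05 and 1.12 and did not pass. The number of members that passed at 6 mg/kg was 2 with DESeq2 and with the GC and length offset, 0 with 2 groups alone, 0 without animals 58 and 52 (3 by unadjusted p) and 0 with the clock index (0 also by unadjusted p), and 0 to 2 when a library was left out. For the slope it was 2 (Cyp3a59 and Cyp3a25) over mg/kg, with DESeq2 and with the offset, 0 without animals 58 and 52 (1 by unadjusted p), and 0 to 1 when a library was left out. Over all genes, 363 passed at 6 mg/kg, against 1138 with DESeq2, 241 without the filter, 13 with 2 groups alone, 13 without animals 58 and 52, 103 with the offset and 0 with the clock index (471 by unadjusted p), and 3 to 1302 when a library was left out, 3 of them without animal 4 and 11 without animal 3. The causes were not tested.

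Values of members that did not pass changed sign. With 1 surrogate variable the log2 values at 6 mg/kg were 0.18 for Cyp3a13, -0.52 for Cyp3a41a and -0.50 for Cyp3a41b, those at 1 mg/kg 0.11 for Cyp3a13 and -0.047 for Cyp3a59, and that at 0.1 mg/kg -0.044 for Cyp3a25. With the clock index they were 0.19 for Cyp3a13, 0.30 for Cyp3a16, -0.18 for Cyp3a41a, -0.18 for Cyp3a41b and 0.067 for Cyp3a44 at 6 mg/kg, 0.14 for Cyp3a13, 0.15 for Cyp3a44 and -0.51 for Cyp3a59 at 1 mg/kg, and -0.28 for Cyp3a25 and -0.30 for Cyp3a59 at 0.1 mg/kg. With the offset they were 0.11 for Cyp3a13 at 6 mg/kg, 0.044 for Cyp3a13 and 0.085 for Cyp3a25 at 1 mg/kg, and 0.019 for the slope of Cyp3a13. Without animals 58 and 52 they were 0.21 for Cyp3a13, -0.45 for Cyp3a41a and -0.43 for Cyp3a41b at 6 mg/kg, and 0.037 for the slope of Cyp3a13. Against 0.1 mg/kg the values at 6 mg/kg were -0.12 for Cyp3a11 and -0.53 for both Cyp3a41a and Cyp3a41b, and against 1 mg/kg they were 0.045 for Cyp3a13 and 0.66 for Cyp3a16.

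When a library was left out, the values at 6 mg/kg ran from -0.29 to 0.065 for Cyp3a13, -0.25 to 0.21 for Cyp3a41a and -0.23 to 0.24 for Cyp3a41b. At 1 mg/kg they ran from -0.18 to 0.025 for Cyp3a13, -0.13 to 0.11 for Cyp3a25 and -0.079 to 0.33 for Cyp3a59. At 0.1 mg/kg they ran from -0.029 to 0.27 for Cyp3a13, -0.00021 to 0.61 for Cyp3a16, -0.077 to 0.17 for Cyp3a25 and -0.010 to 0.40 for Cyp3a59. With 4 vehicle libraries, 43% of the simulated 2-fold changes were recovered, and smaller ones were not simulated.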
